A study of Mus musculus with 6 samples.

Results

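The proteasome subunit genes of mouse encode the large protease that degrades ubiquitin-tagged proteins. They were taken here as all genes whose annotated symbol starts with Psma, Psmb, Psmc, Psmd, Psme, Psmf or Psmg followed by a digit, from probe sets that name a single gene. The rule found 56 probe sets for 50 genes, out of 19938 genes measured, and the brightest probe set by mean signal stood for each gene. By role the 50 comprised 16 genes of the proteolytic core, 17 of the regulatory cap, 5 of the immunoproteasome (Psmb8, Psmb9, Psmb10, Psme1 and Psme2) and 10 of other regulators and assembly chaperones. The remaining 2, Psmc3ip and Psme3ip1, match by name only: Psmc3ip is a factor of meiotic recombination and Psme3ip1 a protein that binds Psme3, and neither is a subunit.

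Migrating keratinocytes at the front of the healing epidermis had been collected by laser capture from mouse skin wounds that were 3 days old. In 3 samples the mice were diabetic, after a diet high in fat and fructose that began at 8 weeks of age and lasted 16 weeks. In the other 3 the mice were normal and had received a control diet for the same time, so that both groups carried wounds of the same age. The labels give no strain, sex or genotype, and although the titles speak of biological replicates, no label ties an array to a mouse of its own. The p-values therefore measure how far these samples scattered, which may be technical. The tissue had been fixed, captured cells were pooled over the sections of a sample, and the RNA was labelled for whole-transcript arrays with a kit for very small inputs. Values are the deposited log2 probe set signals, and every difference is diabetic minus normal with n = 3 arrays in each group. Signals of different probe sets depend on their probes and cannot be ranked as RNA amounts, and in captured tissue a smaller share of a cell type and less RNA per cell cannot be told apart.

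The proteasome consists of a barrel-shaped core, with outer rings of alpha subunits (Psma genes) and inner rings of beta subunits (Psmb genes), and of a cap that binds ubiquitin chains, unfolds the substrate with a ring of ATPases (Psmc genes) and feeds it into the core. Among the beta subunits Psmb5, Psmb6 and Psmb7 carry the catalytic sites. Interferon induces the alternatives Psmb8, Psmb9 and Psmb10, which replace them in the immunoproteasome, and the activator PA28 formed by Psme1 and Psme2, and these forms shape the peptides that reach MHC class I. When proteasome activity is low, the transcription factor NRF1 (Nfe2l1) raises the subunit genes together. In skin wounds the proteasome turns over cell cycle and signalling proteins of keratinocytes.

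The arrays were dim, and this bears on every value that follows. A background limit was set on each array from 1190 chemosensory receptor genes, of which 95% had signals below it, and it was 1.98, 2.01 and 2.12 in diabetic samples, compared with 2.11 to 2.12 in normal samples. The signal passed this limit on every array for 17.3% of all genes and on no array for 51.5%. E-cadherin (Cdh1), the protein by which the cells were located, stayed under the limit on every array, as did 6 of 18 keratinocyte marker genes in all, while 3 of the 18 were above it on all 6. Markers of leukocytes had 0 of 16 genes above the limit on all 6 arrays, markers of fibroblasts 3 of 9 and markers of skeletal muscle 4 of 11. Averaged over its genes, the keratinocyte list ranged over 2.01 to 2.09 in diabetic samples and 2.04 to 2.22 in normal samples. The muscle list ranged over 2.18 to 2.35 in diabetic samples and 2.15 to 2.19 in normal samples. The fibroblast list ranged over 2.17 to 2.22 in diabetic samples and 2.07 to 2.16 in normal samples. Of the keratinocyte genes 9 were higher in diabetic samples and 9 lower, of the muscle genes 9 and 2, and of the fibroblast genes 6 and 3. At an unadjusted p under 0.05 in limma, Trp63 of keratinocytes was lower (-0.31, p 0.0425) and Myh2 of muscle higher (0.35, p 0.0147). That was 1 gene of 18 and 1 of 11, against 5.56% of all genes. The part of these lists in the results below was not tested.

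Transcripts of the proteasome were measurable above background for a minority of the subunits. Of the 50 genes, 15 (30%) were above the limit on every array and 23 on no array, next to the 17.3% and 51.5% of all genes. The 15 included 4 of 16 core genes (Psmb3, Psmb4, Psmb5 and Psmb6), 5 of 17 cap genes (Psmc1, Psmc2, Psmc3, Psmd2 and Psmd8), 4 of the 5 immunoproteasome genes (Psmb8, Psmb9, Psmb10 and Psme1), the cap chaperone gene Psmd9, and Psme3ip1. Psmb3 passed by its brighter probe set, and its other probe set was under the limit on every array. None of the 8 alpha subunit genes reached the limit on all arrays, and 6 of them were under it on every array. Diabetic arrays had 21, 22 and 20 of the 50 genes above the limit, and normal arrays had 19, 19 and 17. Among all genes, 35.2%, 36.5% and 29.1% passed on the diabetic arrays, against 27.4%, 28.4% and 28.4% on the normal arrays. The higher counts on diabetic arrays were thus shared by genes at large. Replicates 1 and 2 of the diabetic group also had the smallest limits. At the 99th percentile of the receptor genes, which lay between 2.72 and 3.12, only Psmb5, Psmb6, Psmc1, Psmc3 and Psme3ip1 were above it on all 6 arrays, against 3.10% of all genes, and no immunoproteasome gene was.

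**Figure D1:**
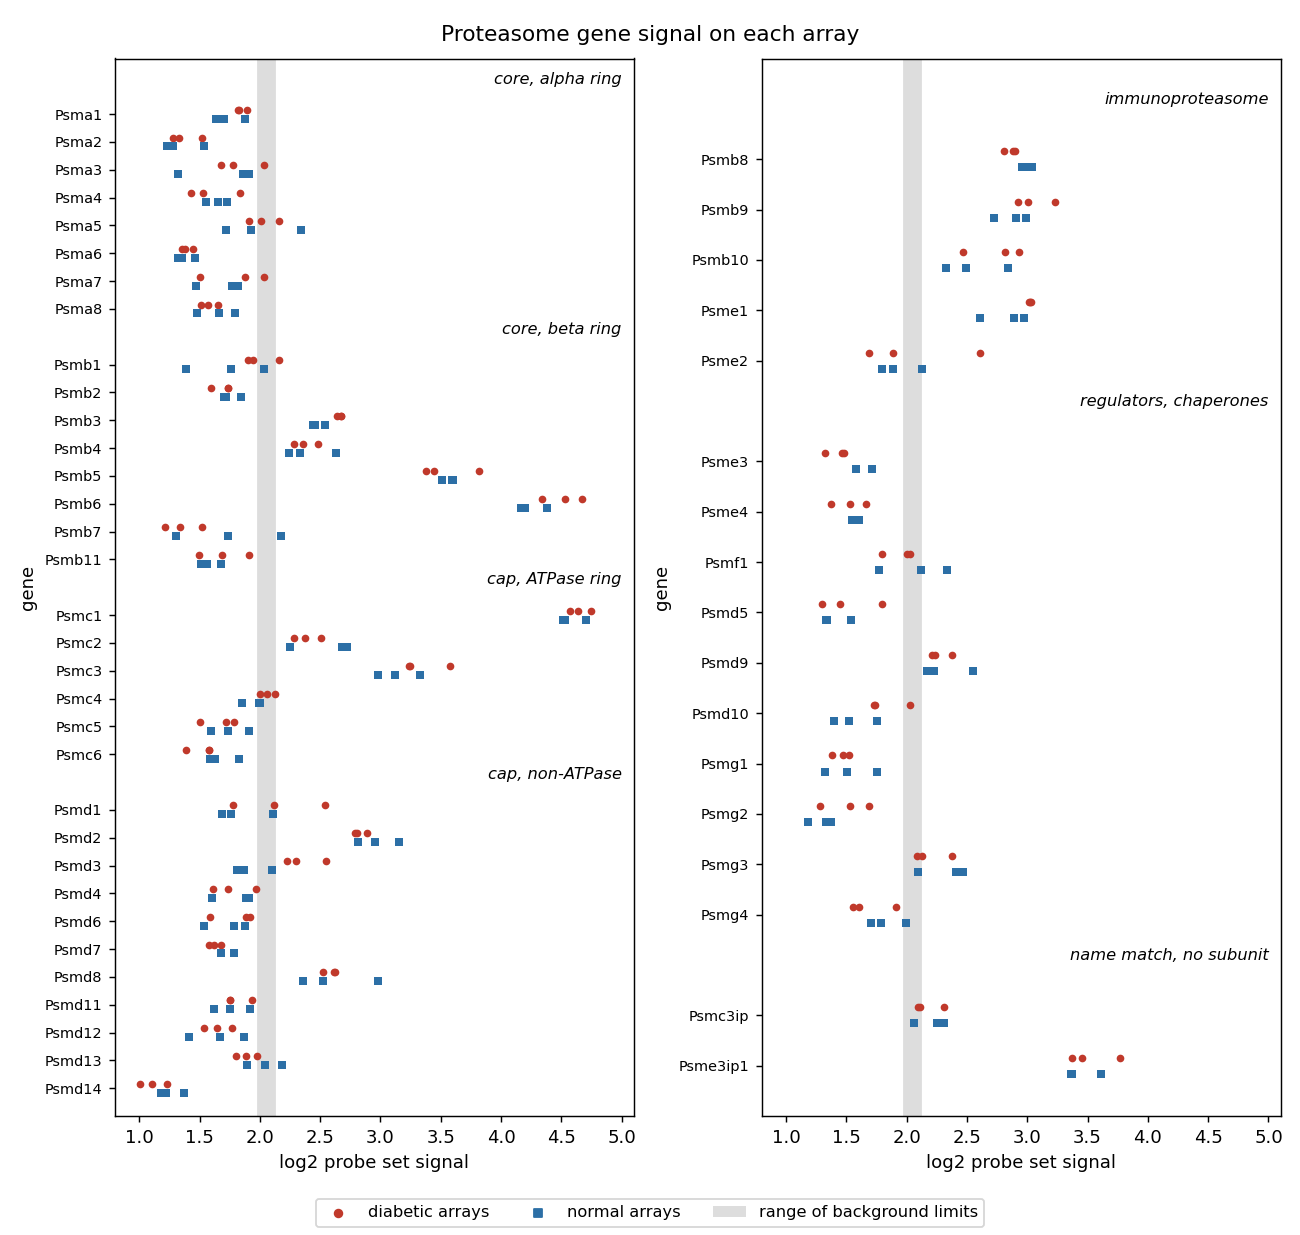
Log2 probe set signal of each of the 50 genes on the 3 diabetic (red circles) and 3 normal (blue squares) arrays, grouped by role, with the range of the background limits of the 6 arrays in grey. Most alpha subunits lie left of the grey band in both groups, Psmb6 and Psmc1 lie above 4, and the points of the groups overlap for all genes except Psmb3, Psmc6, Psmd3, Psmd7, Psmb8, Psme1 and Psme3.

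No proteasome gene differed between diabetic and normal keratinocytes after adjustment. With limma and Benjamini-Hochberg adjustment over all 19938 genes, 0 of the 50 passed and the smallest adjusted p among them was 0.780. The background was 0% of all genes, and the ordinary linear model per gene likewise called 0 of the 50. At an unadjusted p under 0.05 there was 1 of 50 genes (2.00%), against 5.56% of all genes. It was higher in diabetic samples, as 2.64% of all genes were, and 0 were lower, against 2.92% of all genes. The genes divided evenly, with 25 higher in diabetic samples (48.7% of all genes were) and 25 lower, and a median difference of 0.00490, next to -0.00393 over all genes. For 7 of the 50 genes (14.0%) the groups did not overlap, against 10.7% of all genes, 3 of them higher in diabetic samples (5.02% of all genes) and 4 lower (5.66%). Both counts stood near their background. Differences beyond 1.5-fold were outside the 95% confidence interval for 45 of the 50 genes (90.9% of all genes) and differences beyond 2-fold for all 50 (99.6% of all genes), and for genes at background this bounds array signal, not RNA.

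**Figure D2:**
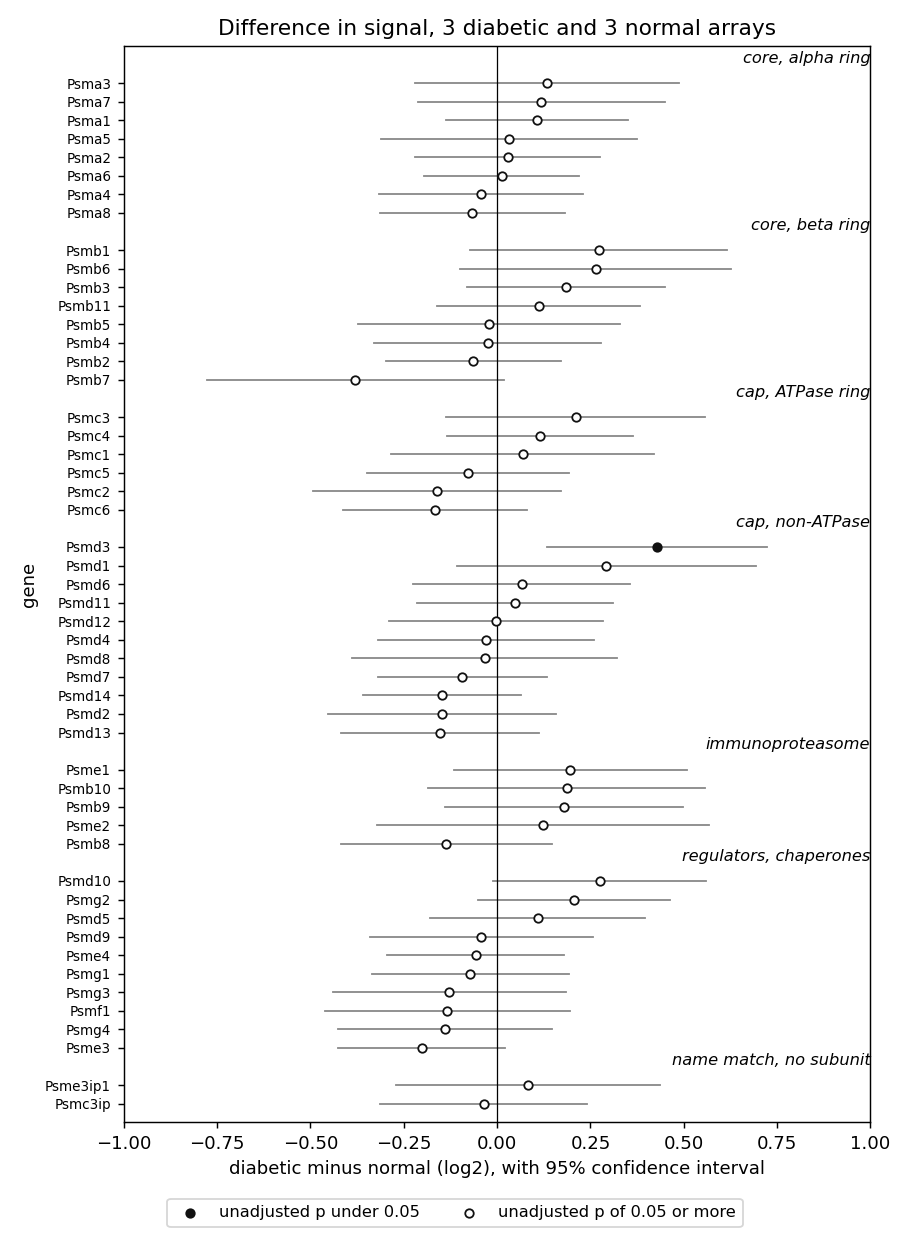
Difference in log2 signal, diabetic minus normal, for each of the 50 genes with its 95% confidence interval from limma, ordered within each role. The filled point is Psmd3 at 0.43, the single gene with an unadjusted p under 0.05; its adjusted p is 0.780, and the intervals of all the other genes include 0.

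For the outer rings of the core, whose alpha subunits form the gate, array signals were close between the groups. Most of these signals were background: 6 of the 8 genes, Psma3 among them, never exceeded the limit. Psma5 exceeded it on 3 arrays and Psma7 on 1. The closeness therefore cannot show that RNA of the alpha subunits was alike in the groups. Differences of the 8 genes ran from -0.07 to 0.13, with 6 higher and 2 lower and a median of 0.03. Psma3 had the most positive difference, with 1.78, 1.68 and 2.04 in diabetic keratinocytes, against 1.86, 1.32 and 1.91 in normal ones, a difference of 0.13 (SE 0.16, adjusted p 0.942 in limma). The groups overlapped, and normal replicate 2 was the low array; without it the difference was -0.05. Psma8, the testis form of an alpha subunit, had the most negative one at -0.07 (SE 0.11), with 1.65, 1.51 and 1.57 in the diabetic group, compared with 1.79, 1.48 and 1.66 in the normal group, all under the limit. Psma1, Psma2, Psma4, Psma6 and Psma7 differed by 0.11, 0.03, -0.04, 0.01 and 0.12.

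The inner rings held both the brightest core signals and the most negative difference of all 50 genes. Psmb6, the caspase-like catalytic subunit, read 4.34, 4.53 and 4.67 in the diabetic samples against 4.20, 4.38 and 4.17 in the normal samples, a difference of 0.26 (SE 0.17, adjusted p 0.894 in limma). Diabetic replicates 2 and 3 were above all normal arrays, and diabetic replicate 1 lay within their range. Psmb5, the chymotrypsin-like subunit and the main target of proteasome inhibitors, read 3.44, 3.38 and 3.82 in diabetic keratinocytes, against 3.60, 3.60 and 3.51 in normal ones, a difference of -0.02 (SE 0.16). Psmb7, the trypsin-like subunit, differed by -0.38 (SE 0.18, unadjusted p 0.0592, adjusted p 0.893 in limma), with 1.21, 1.52 and 1.34 in the diabetic group, compared with 1.30, 2.17 and 1.74 in the normal group. Only normal replicate 2 exceeded the limit for Psmb7, and without that array the difference was -0.16.

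Among beta subunits without a catalytic site, the probe set used for Psmb3 separated the groups by the narrowest spread. It read 2.64, 2.68 and 2.67 in the diabetic samples against 2.44, 2.45 and 2.54 in the normal samples, a mean of 2.66 ± 0.02 (SD) in diabetic and 2.48 ± 0.05 in normal samples and a difference of 0.19 (SE 0.12, adjusted p 0.906 in limma). All 3 diabetic arrays were above all 3 normal arrays, while the moderated SE, which borrows spread from genes of like brightness, was larger than the spread of Psmb3 itself. The other probe set of Psmb3, 10380815, read 1.23, 1.79 and 1.31 in diabetic samples against 1.08, 0.98 and 1.30 in normal samples. It was under the background limit on every array, and its groups overlapped. Psmb1 differed by 0.27 (SE 0.16), with 1.90, 2.16 and 1.94 in diabetic keratinocytes, against 1.76, 2.03 and 1.39 in normal ones, and here normal replicate 3 was the low array, the difference without it being 0.10. Psmb2 and Psmb4 differed by -0.06 and -0.03, and Psmb11, the catalytic subunit of the thymus, by 0.11 with every array under the limit. Over all 16 core genes the median difference was 0.03, with 10 higher and 6 lower.

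The promoter of Psmb6 is shown because Psmb6 gave the brightest core signal and because the NRF1 response acts through the antioxidant response element. The window runs from 250 bases before to 50 after the annotated start (RefSeq, GRCm38.p6, chr11:70525107-70525406, plus strand), and capitals mark the element's core letters TGACNNNGC.
Psmb6: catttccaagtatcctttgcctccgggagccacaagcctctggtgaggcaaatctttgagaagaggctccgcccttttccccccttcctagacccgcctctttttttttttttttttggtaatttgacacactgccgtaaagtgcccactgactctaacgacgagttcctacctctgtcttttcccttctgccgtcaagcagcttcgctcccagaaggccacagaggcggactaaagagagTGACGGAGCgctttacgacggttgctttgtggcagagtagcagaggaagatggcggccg
Of the 50 genes 42 had such a window, 46 windows in all. The core letters, read on both strands, stood in 6 of these 46 windows (13.0%), those of Psmb5, Psmb6, Psmc6, Psmd9, Psmd12 and Psme4, and in 12.4% of all 32851 windows. CCAAT, the letters bound by NF-Y, stood on either strand in 16 of the 46 windows (34.8%) and in 37.4% of all windows. Both shares were near those of all promoters. The genes whose windows hold the element core differed by -0.02 (Psmb5), 0.26 (Psmb6), -0.17 (Psmc6), -0.04 (Psmd9), less than 0.01 in size (Psmd12) and -0.06 (Psme4), in no common direction.

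The ATPase ring of the cap was divided, with 3 genes higher and 3 lower. Psmc1, the brightest probe set of the 50, read 4.74, 4.64 and 4.57 in the diabetic group, compared with 4.53, 4.51 and 4.70 in the normal group, a difference of 0.07 (SE 0.16). Psmc3 read 3.23, 3.25 and 3.58 in the diabetic samples against 3.12, 3.32 and 2.98 in the normal samples, a difference of 0.21 (SE 0.16, adjusted p 0.911 in limma), and the groups overlapped for both genes. Without diabetic replicate 3 the Psmc3 difference was 0.10. Psmc6 had every diabetic array below every normal array, at 1.58, 1.38 and 1.58 in diabetic keratinocytes, against 1.62, 1.59 and 1.83 in normal ones, a difference of -0.17 (SE 0.11), but all 6 values were under the background limit. Psmc2, Psmc4 and Psmc5 differed by -0.16, 0.11 and -0.08.

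Psmd3, which encodes a subunit of the cap's lid, had the largest difference of the 50 genes in size. It read 2.22, 2.55 and 2.30 in the diabetic group, compared with 1.87, 2.10 and 1.81 in the normal group, a mean of 2.36 ± 0.17 (SD) in diabetic and 1.93 ± 0.15 in normal samples. The groups did not overlap, and the gene was above the background limit on all 3 diabetic arrays and on 0 normal arrays. That split is narrow, as normal replicate 2 read 2.102 against its limit of 2.109. The limits of diabetic replicates 1 and 2 were smaller, at 1.98 and 2.01. The difference was 0.43 (SE 0.14), a 1.35-fold higher signal, with an unadjusted p of 0.00825 and an adjusted p of 0.780 in limma, so it is not a call. With the normal arrays set to their background limit, the mean signal was 1.18-fold higher in diabetic samples. That value carries no sampling error and is not a lower bound. It rests on the same arrays that set Psmd3 apart, so it is no further evidence. The confidence interval of the difference in limma ran from 0.13 to 0.72. Leaving out each array in turn gave differences between 0.33 and 0.52.

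Among the other non-ATPase subunits, none reached an unadjusted p of 0.05. Of the 11 non-ATPase genes 4 were higher and 7 lower, with a median of -0.03. Psmd2, a scaffold of the base, read 2.79, 2.89 and 2.80 in the diabetic samples against 2.95, 2.82 and 3.15 in the normal samples, a difference of -0.15 (SE 0.14). Psmd1, its partner scaffold, differed by 0.29 (SE 0.18), with 1.78, 2.11 and 2.54 in diabetic keratinocytes, against 1.69, 1.76 and 2.11 in normal ones, so that diabetic replicate 3 was the high array. Psmd14, the deubiquitinase of the lid, differed by -0.15 and Psmd4, a ubiquitin receptor, by -0.03, both under the limit throughout. Psmd13 differed by -0.15 (SE 0.12), with 1.98, 1.88 and 1.81 in the diabetic group, compared with 2.04, 2.19 and 1.89 in the normal group, the groups overlapping. Differences of Psmd6, Psmd7, Psmd8, Psmd11 and Psmd12 lay between -0.09 and 0.07; the Psmd7 groups did not overlap, with every value under the limit. Over all 17 cap genes the median was -0.03, with 7 higher and 10 lower.

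The 5 immunoproteasome genes had a median difference of 0.18, with 4 higher and 1 lower in diabetic samples, and none reached an unadjusted p of 0.05. Without normal replicate 1 the median was 0.07. Psme1, the alpha chain of PA28, read 3.01, 3.03 and 3.02 in the diabetic samples against 2.61, 2.98 and 2.89 in the normal samples, a difference of 0.20 (SE 0.14, adjusted p 0.911 in limma). The groups did not overlap, yet the nearest arrays were close, and without normal replicate 1 the difference was 0.09. Psmb8, the immunosubunit that replaces Psmb5, was lower in diabetic samples without overlap, at 2.88, 2.90 and 2.81 in diabetic keratinocytes, against 2.96, 3.04 and 3.00 in normal ones, a difference of -0.14 (SE 0.13, adjusted p 0.920 in limma). Psmb9, which replaces Psmb6, read 3.00, 3.23 and 2.93 in the diabetic group, compared with 2.72, 2.91 and 2.99 in the normal group, a difference of 0.18 (SE 0.15) that was 0.09 without diabetic replicate 2.

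Psmb10, which replaces Psmb7, read 2.47, 2.81 and 2.94 in the diabetic samples against 2.32, 2.50 and 2.84 in the normal samples, a difference of 0.19 (SE 0.17), and the groups overlapped as they did for Psmb9. Without normal replicate 1 the Psmb10 difference was 0.07. Psme2, the beta chain of PA28, differed by 0.12 (SE 0.20), with diabetic replicate 1 the high array: 2.61, 1.89 and 1.69 in diabetic keratinocytes, against 1.80, 1.89 and 2.13 in normal ones. Without that array the Psme2 difference was -0.15. A further probe set that names both Psme2 and Psme2b was left out by the rule. Averaged over the 5 genes the signal was 2.80, 2.77 and 2.68 in the diabetic group, compared with 2.48, 2.66 and 2.77 in the normal group, so normal replicate 1 was the low array and normal replicate 3 lay among the diabetic ones. The leukocyte list, whose cells carry much immunoproteasome, averaged 1.68 to 1.74 in diabetic samples and 1.64 to 1.79 in normal samples, with 11 of its 16 genes, Ptprc, Cd68, Lyz2 and Cd74 among them, above the background limit on no array. The other 5 passed it on some arrays, Lcp1 on 3 diabetic and 2 normal arrays and S100a9, Cd52, Cd3e and H2-Aa on fewer, and their part in the immunoproteasome values was not tested.

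Set against its constitutive counterpart on the same array, the immunosubunits shared no direction of difference between the groups. Psmb8 minus Psmb5 was -0.56, -0.48 and -1.01 in the diabetic samples against -0.64, -0.55 and -0.51 in the normal samples. Psmb9 minus Psmb6 averaged -1.46 ± 0.25 (SD) in diabetic and -1.37 ± 0.17 in normal samples, and both pairs overlapped between the groups. Psmb10 minus Psmb7 was 1.26, 1.29 and 1.60 in diabetic keratinocytes, against 1.02, 0.32 and 1.10 in normal ones, which did not overlap. The difference of 0.57 between the group means of the Psmb10 pair carries the Psmb7 values, which were at background on 5 of 6 arrays and highest on normal replicate 2. These pair values were not tested.

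**Figure D3:**
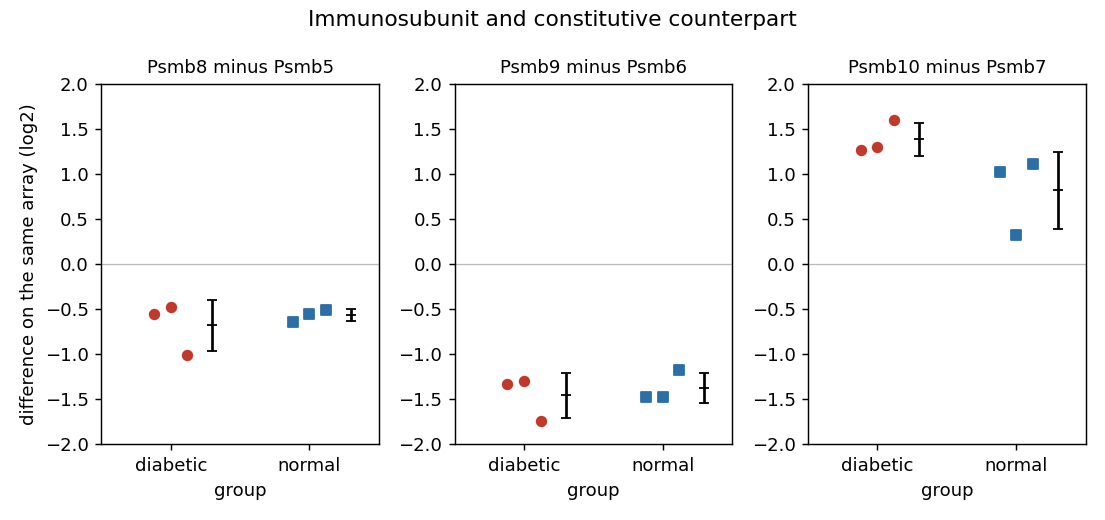
Difference in log2 signal between each immunosubunit and its constitutive counterpart on the same array, for 3 diabetic and 3 normal arrays, with the group mean and SD beside the points. The height of a panel depends on the probes and only the comparison between groups is meaningful; Psmb10 minus Psmb7 lies between 1.26 and 1.60 on the diabetic arrays, above the normal ones, and the other pairs overlap.

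Promoter windows of 3 immunoproteasome genes are shown because these genes differed in direction or share a promoter with a pathway gene. Psmb8 was lower and Psme1 higher in diabetic samples without overlap, and Psmb9 lies head to head with the peptide transporter gene Tap1. Capitals mark TTCNNNGAA in Psmb8, the letters of the site for interferon gamma-activated STAT factors (chr17:34197945-34198244, plus strand), ATTGG in Psmb9, the reverse complement of CCAAT (chr17:34187281-34187580, minus strand), and in Psme1 TTTC, any 2 bases and TTTC, the reverse complement of the interferon-stimulated response element core, which is GAAA, any 2 bases and GAAA (chr14:55578244-55578543, plus strand), all in GRCm38.p6.
Psmb8: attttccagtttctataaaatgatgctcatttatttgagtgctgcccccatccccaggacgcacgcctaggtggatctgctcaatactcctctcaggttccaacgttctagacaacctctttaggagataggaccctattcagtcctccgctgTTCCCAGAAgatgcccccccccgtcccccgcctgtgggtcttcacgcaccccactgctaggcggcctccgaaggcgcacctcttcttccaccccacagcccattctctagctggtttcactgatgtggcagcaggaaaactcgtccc
Psmb9: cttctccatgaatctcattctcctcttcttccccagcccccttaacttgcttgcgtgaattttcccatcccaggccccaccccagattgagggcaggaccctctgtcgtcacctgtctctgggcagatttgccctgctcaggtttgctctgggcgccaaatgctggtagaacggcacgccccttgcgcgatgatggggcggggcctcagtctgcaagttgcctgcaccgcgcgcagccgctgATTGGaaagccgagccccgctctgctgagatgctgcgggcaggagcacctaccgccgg
Psme1: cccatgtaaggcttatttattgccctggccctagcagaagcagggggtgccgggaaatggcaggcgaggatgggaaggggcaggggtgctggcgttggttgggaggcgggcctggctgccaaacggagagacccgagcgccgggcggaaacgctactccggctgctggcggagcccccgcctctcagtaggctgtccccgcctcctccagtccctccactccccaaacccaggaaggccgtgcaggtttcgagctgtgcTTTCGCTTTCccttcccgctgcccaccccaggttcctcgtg
Each of these windows held only the match marked, so no overlap of matches could arise. The response element core stood on either strand in 5 of the 46 windows (10.9%), those of Psmb3, Psmd4, Psmd9, Psme1 and Psmg4, and in 3.44% of all windows. TTCNNNGAA, which reads the same on both strands, stood in 3 of 46 windows (6.52%), those of Psmb8, Psmd2 and Psmg1, and in 8.30% of all. The 5 genes with the response element core differed by 0.19 (Psmb3), -0.03 (Psmd4), -0.04 (Psmd9), 0.20 (Psme1) and -0.14 (Psmg4), again in both directions.

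The start sites of Psmb9 and Tap1 lie 226 bases apart on opposite strands, and their windows share 275 bases. Tap1, which carries proteasome products into the endoplasmic reticulum, read 1.73, 1.76 and 1.76 in the diabetic group, compared with 1.52, 1.63 and 1.30 in the normal group, a difference of 0.27 (SE 0.11, unadjusted p 0.0385, adjusted p 0.887 in limma). The groups did not overlap, as for 10.7% of all genes, all 6 Tap1 values were under the background limit, and Psmb9 overlapped. Among 11 measured genes of MHC class I antigen processing 5 were higher and 6 lower, with a median of -0.04, and Tap1 was the 1 gene of 11 with an unadjusted p under 0.05, against 5.56% of all genes.

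Of the 10 regulators and assembly chaperones 3 were higher and 7 lower in diabetic samples, with a median of -0.06. Psmd10 (gankyrin), a chaperone of cap assembly, differed by 0.27 (SE 0.13, unadjusted p 0.0580, adjusted p 0.893 in limma), with 1.74, 1.73 and 2.03 in the diabetic samples against 1.52, 1.76 and 1.39 in the normal samples. Psme3, the nuclear activator PA28 gamma, had every diabetic array below every normal array, at 1.33, 1.48 and 1.46 in diabetic keratinocytes, against 1.72, 1.58 and 1.58 in normal ones, a difference of -0.20 (SE 0.10, adjusted p 0.893 in limma). Both genes were under the background limit on all 6 arrays, so neither group had a signal above background. Psme4, the activator PA200, and Psmf1, the inhibitor PI31, differed by -0.06 and -0.13. The cap chaperones Psmd5 and Psmd9 differed by 0.11 and -0.04, and the core chaperones Psmg1, Psmg2, Psmg3 and Psmg4 by -0.07, 0.21, -0.13 and -0.14. The name matches Psmc3ip and Psme3ip1 differed by -0.04 and 0.08.

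For 5 of the genes the array carried several probe sets, 11 in all. The 3 probe sets of Psma3 (10396193, 10419711 and 10543783) followed each other from array to array, all lowest on normal replicate 2, and differed by 0.05, 0.13 and 0.10. Those of Psma5 disagreed in sign, at -0.15 for 10365426 and 0.03 for 10495279, as did those of Psmc1, at 0.07 for 10397741 and -0.05 for 10439878, where the dimmer probe set of Psmc1 averaged 1.65 against 4.62 for the brighter. The values behind the Psma5 difference were 1.91, 2.01 and 2.16 in the diabetic group, compared with 2.34, 1.72 and 1.93 in the normal group. Psmb3 was higher in diabetic samples by 0.19 on 10434643 and by 0.32 on 10380815, with unadjusted p of 0.155 and 0.0478 in limma over all probe sets, the second averaging 1.28. Psmd2 was lower by both, at -0.06 on 10362392 and -0.15 on 10434467. Which probe sets detect the gene itself and which a near-identical copy was not tested, and the doubt extends to the brighter ones. Psmb3 is annotated to chromosome 11, yet the number of its brighter probe set, 10434643, lies near that of Psmd2 (10434467) on chromosome 16. The number of its dimmer one, 10380815, lies near that of Psmd3 (10380986) on chromosome 11. Psma3 is annotated to chromosome 12, and its brightest probe set, 10419711, is numbered near that of Psmb5 (10419810) on chromosome 14.

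**Figure D4:**
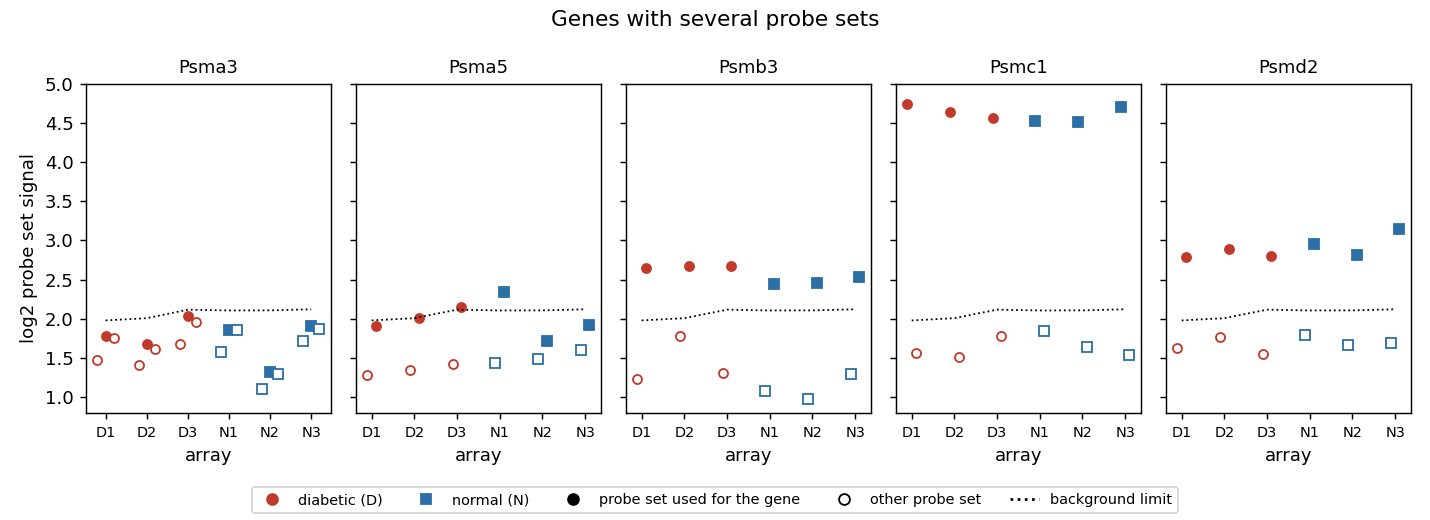
Log2 signal of every probe set of the 5 genes with several, on diabetic (D1 to D3, red circles) and normal (N1 to N3, blue squares) arrays, with the probe set used for the gene filled, other probe sets open and set slightly apart sideways, and the background limit of each array dotted. The second probe sets of Psmb3, Psmc1 and Psmd2 lie under the limit on all 6 arrays, and the 3 probe sets of Psma3 share their lowest array, N2.

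The genes around the proteasome gave no call either. Of 9 measured partners of the proteasome outside these symbols 3 were higher and 6 lower, with a median of -0.05, and the 2 with the smallest p were Zfand2a, induced by proteotoxic stress, at -0.19 and Zfand5, a proteasome activator, at 0.16. In the NRF1 pathway 5 of 11 genes were higher and 6 lower, with a median of -0.01. Nfe2l1 itself read 2.54, 2.18 and 2.55 in the diabetic samples against 2.45, 2.66 and 2.67 in the normal samples, a difference of -0.17 (SE 0.14), above the limit on all 6, and Keap1, the repressor of the related factor NRF2, differed by -0.20. Of 7 measured ubiquitin, E1 and shuttle factor genes 6 were higher and 1 lower, with a median of 0.06, and the smallest p belonged to Ufd1 at -0.17 and Ubqln1 at 0.10, both under the limit. None of these 3 lists held a gene with an unadjusted p under 0.05, where 5.56% of all genes had one.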

How the data were processed

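The authors deposited log2 probe set signals for 35556 probe sets on 6 arrays. The submitters' processing notes name Partek without a version. The background correction, normalization, summarization and array annotation build could not be taken from the sources used here, where they are not given. The base of the logarithm was taken from the range of the values. Array medians lay between 1.75 and 1.80, no scaling was applied, and 0 columns belonged to other series.

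An annotation table of the array named 1 gene for 21789 probe sets, several for 1621 and none for 12146. Symbols were updated by gene ID (21698 matched) in a GRCm38.p6 table. Groups and replicate numbers came from the titles. limma 3.58.1 in R 4.3.3 (lmFit, eBayes with an intensity trend) compared the groups over 19938 genes, with Benjamini-Hochberg adjustment. It was checked on simulated data. Promoter windows are RefSeq's.

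Members, lists and the background limit were chosen with earlier results of these data known, and the lists are described, not tested. Every member is named. Array values are given for the immunoproteasome, for an unadjusted p under 0.05, for the 3 brightest of core and cap, for the largest difference of either sign in each role, and where probe sets differ in sign; Psmd1 was added after its values were seen. Of 13 ubiquitin-related genes listed 7 were measured, of 14 antigen processing genes 11, of 12 NRF1 pathway genes 11 and of 10 partners 9. The rest were not analysed here. Alternatives covered scaling, variance model, array weights, dim genes, probe set handling, a replicate block and each array left out.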

Additional observations from a re-analysis of the deposited data

How the results depend on the processing

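Under all alternatives tried, 0 of the 50 genes had an adjusted p under 0.05. The count at an unadjusted p under 0.05 was 1 as reported, 2 after quantile normalization or after aligning array medians (Psmd3 and Psmd10), 4 in the ordinary linear model (Psmb3, Psmd3, Psmb8 and Psme3), 2 with array weights (Psmd3 and Psmb7), 2 with all 56 probe sets apart, and 0 with a fold of at least 1.5. It ran from 1 to 3 when each array was left out (3 without diabetic replicate 2, normal replicate 1 or normal replicate 2). Psmd3 was among them in each of 17 fits, 1 of which kept genes above the background limit on at least 3 arrays, a filter Psmd3 passed through its diabetic arrays alone. All the fits reuse the arrays that set Psmd3 apart, so this recurrence is no further evidence. Over these fits the share of the members in the fit ran from 2% to 8%. The share of all features in the fit ran from 4.57% to 6.98%. The fits held 50 member genes, except 25 without the dimmer 50% of genes, 20 with the background filter and 56 with probe sets apart. The deviations of same-numbered arrays had correlations of -0.02, 0.01 and 0.01 across genes. With most genes at background, these correlations cannot show whether such arrays were handled together, and the main fit used no pairing. With the replicate block 3 genes (Psmb7, Psmd1 and Psmd3) had an unadjusted p under 0.05, and no adjusted call changed.

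Genes without overlap between the groups numbered 10 to 15 of 50 with 1 array left out (15 without diabetic replicate 1 or normal replicate 2). Fewer arrays make overlap rarer, and 19.6% to 22.4% of all genes had none. Without diabetic replicates 1, 2 and 3 in turn the shares were 30%, 20% and 22% of the 50, against 20.5%, 19.6% and 20.6% of all genes. Without normal replicates 1, 2 and 3 in turn they were 20%, 30% and 28%, against 20.9%, 22.4% and 21.3%. The gaps between these shares were not tested. Over all genes, the adjusted calls with 1 array left out ran from 0 to 2 (2 without diabetic replicate 2 and 1 without diabetic replicate 3). The number above the background limit on all 6 arrays was 5 at the 99th percentile, against 15 at the 95th. The medians by role moved by less than the spread between arrays. With an array left out they ran from less than 0.01 below 0 (-0.00182) to 0.05 for the core, from -0.06 to 0.01 for the cap, from 0.07 to 0.23 for the immunoproteasome and from -0.10 to 0.02 for regulators and chaperones. Among the 21 genes given by the naming rule, which do not include Psmd1, Psma5 was turned to -0.062 by the mean of its probe sets. With 1 array left out the range included 0 for Psma3 (-0.055 to 0.24), Psma5 (-0.11 to 0.20), Psma8 (-0.15 to 0.0080), Psmb5 (-0.16 to 0.061) and Psme2 (-0.15 to 0.31). Besides those named beside their results, differences that shrank by over 1.5 times were 0.02 for Psmc1 without diabetic replicate 1, 0.18 for Psmd10 without diabetic replicate 3, -0.09 for Psmc6 and -0.06 for Psmd2 without normal replicate 3, and -0.08 for Psmd13 without normal replicate 2. The cause of these changes was not tested. There were 3 arrays a group, and 51.5% of all genes were above the background limit on no array. Small differences may have been missed. The check on simulated data imposed known differences, but its counts are not given here, and the power on the real arrays was not tested.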
